A study of Homo sapiens with 6 samples.

Results

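The translation initiation and elongation factor genes are the genes whose symbols start with EIF or EEF and a digit, the families that recruit ribosomes to mRNA and move them along it. Of 153 such names among the 32917 genes of the input table, 65 were kept by name alone. The names left out were 79 that end in P and a number and mark processed gene copies, 5 of the EIF2AK kinase family, 1 antisense name and the 3 genes of the eIF4E-binding proteins, whose symbols also end in P and a number. The name rule also caught EIF3J-DT, a divergent noncoding transcript beside EIF3J, and the readthrough names EEF1AKMT4-ECE2 and EEF1E1-BLOC1S5.

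The cells were Kasumi-1, an established line of human acute myeloblastic leukaemia known for its RUNX1-RUNX1T1 fusion, with the genotype given as WT. All libraries came from cells kept for 24 h in 100 uM CoCl2, which mimics hypoxia by stabilising HIF-1, plus 10 nM echinomycin, which stops HIF-1 from binding DNA. From 3 biological replicates, 3 libraries were made of RNA pulled down with an antibody against N6-methyladenosine (m6A, a methyl mark on mRNA; IP) and 3 of the same RNA before the pulldown (input). The authors also compared the combined treatment with CoCl2, which asks what echinomycin adds to the hypoxia mimic; the CoCl2-only libraries were not analysed here.

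Initiation starts when eIF2 brings the initiator tRNA to the small ribosomal subunit, which carries eIF1, eIF1A, eIF5 and the large eIF3 complex. The cap-binding protein eIF4E, the scaffold eIF4G and the helicase eIF4A load this assembly on the mRNA, it scans to the start codon, and eIF5B joins the large subunit. The elongation factor eEF1A then delivers each aminoacyl-tRNA and eEF2 moves the ribosome on, while eIF2B and the eEF1B subunits recharge their G proteins with GTP. mRNAs of many elongation and some initiation factors are known to start with a C followed by a run of pyrimidines, the 5′ terminal oligopyrimidine (TOP) tract through which mTORC1 and LARP1 control their translation.

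Input levels are the authors' FPKM, read fragments scaled to gene length and library size, 1 value per gene and library, and a gene was taken as expressed at a mean of 1 or more. At this limit 58 of the 65 genes were expressed, beside 12612 of all 32917 genes (38.3%). Of 6 myeloblast markers all were expressed, from CD33 at 1.48 to MPO, the granule peroxidase, at 56.2 FPKM. Of the markers of other cells, CD3D (32.1 FPKM) and EPCAM (8.79 FPKM) also passed the limit, whereas CD3E, MS4A1, KRT19 and COL1A1 lay between 0.0345 and 0.68 FPKM. FPKM gives no read depth, so no counting interval can be given for a level. The mean level of EEF1A1P5, a processed copy of EEF1A1, was 944 ± 49.5 FPKM (SD, n = 3), and 20 of the 79 copy names reached the limit, so reads of near-identical genes may be shared between names. This concerns EEF1A1, EEF1B2, EIF3C with EIF3CL, EIF2S3 with EIF2S3B and EIF5A with EIF5AL1.

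The annotated starts of the genes were read for a TOP tract, and the most abundant factor genes differed in it. Each run below is RefSeq sequence of GRCh38.p14 on the transcribed strand, with 10 bases before the annotated start and 15 from it. Capitals mark a tract, defined as C at the start position and at least 4 further letters that are each C or T. These runs belong to the highest expressed genes with and without a tract and to genes with a tract but no listed m6A peak, with EIF3F added as a gene with a tract and peaks called higher.
EEF1A1 (chr6:73521018-73521042, minus strand): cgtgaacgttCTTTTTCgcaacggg
EEF2 (chr19:3985449-3985473, minus strand): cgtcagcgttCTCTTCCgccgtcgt
EEF1B2, downstream start (chr2:206159885-206159909, plus strand): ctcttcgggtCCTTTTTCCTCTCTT
EIF4B (chr12:53006446-53006470, plus strand): tcatccgggtCTTTTgcgttctctt
EIF4A2 (chr3:186783567-186783591, plus strand): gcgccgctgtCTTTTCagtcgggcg
EIF3D (chr22:36529152-36529176, minus strand): cgcatgtttcCTCTTTTCCTggttt
EIF3K (chr19:38619178-38619202, plus strand): tttccaccacCTCTTCCTgttcccg
EIF3F (chr11:7987327-7987351, plus strand): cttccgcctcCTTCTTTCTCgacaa
EIF2S3 (chrX:24054946-24054970, plus strand): gatttccttcCTCTTTTggcaacat
EIF2A (chr3:150546777-150546801, plus strand): cgagcggtttCTCTTTCCgggacaa
EEF1G (chr11:62573877-62573901, minus strand): cgggcggcttactttgcggcagcgc
EIF1 (chr17:41688875-41688899, plus strand): ccgcccctctgccccagtcactgag

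EEF1G and EIF1 have no tract at their annotated start, so their runs show no capitals. Among the 48 of 58 expressed genes found in the RefSeq start table, 13 had a tract at a start (27.1%), beside 7.76% of 8527 expressed symbols and 5.14% of all 27305 symbols of that table. EIF3M, EIF2D and EIF2S3B complete the 13. The tract of EEF1B2 is 16 letters long and runs past the printed window, while its upstream annotated start has none. The mean input level had a median of 30.7 FPKM with a tract (1.26 to 3381) and 11.4 FPKM without (1.26 to 1230.3), so the ranges overlapped almost entirely. Over all expressed symbols the medians were 9.48 and 6.34 FPKM. A listed m6A peak was present in 7 of the 13 genes with a tract (53.8%, exact 95% interval 25.1 to 80.8) and in 30 of the 35 without (85.7%, 69.7 to 95.2). These intervals overlap, which does not settle whether the shares differ, and the difference was not tested. Over all expressed symbols the shares were 82.6% and 88.5%. A match says only that these letters stand at an annotated start, and the start used in these cells was not measured.

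**Figure D1:**
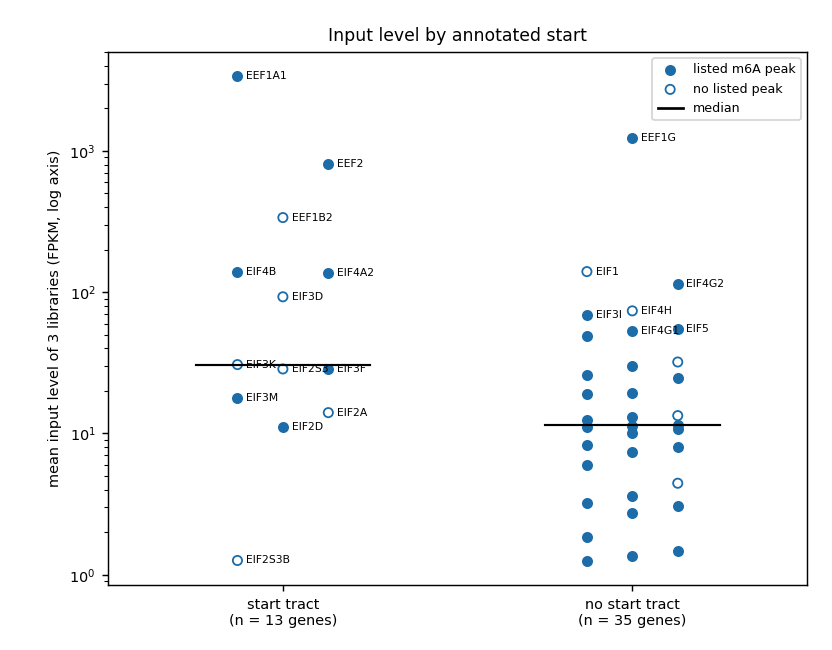
Mean input level of the 48 factor genes found in the RefSeq start table (FPKM, log axis, 1 point per gene, mean of 3 libraries), split by whether an annotated start has a pyrimidine tract; filled points have a listed m6A peak, open points have none, and lines are medians. The medians are 30.7 and 11.4 FPKM, and 6 of the 13 genes with a tract are open.

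Elongation factors were the most abundant of all these mRNAs. EEF1A1, which delivers aminoacyl-tRNA, ranked 1 among all genes, with 3417, 3226 and 3499.5 FPKM in input replicates 1, 2 and 3 (mean 3381 ± 140.2, SD, n = 3). EEF1G, a structural subunit of the eEF1B exchange complex, ranked 9 with 1049.99, 1315 and 1326 FPKM (mean 1230.3 ± 156). Replicate 1 was the low library for EEF1G and replicate 2 for EEF1A1, so the spread was not shared. EEF2, the translocase, ranked 22 with 825, 785 and 823 FPKM (mean 811 ± 23.0). EEF1B2, the exchange subunit that reloads eEF1A, ranked 77 with 338, 324 and 351 FPKM (mean 338 ± 13.3). The libraries of these 4 genes did not overlap with each other. EEF1D, the second exchange subunit, was lower in level at 49.1 ± 1.34 FPKM, and EEF1E1, a scaffold protein of the aminoacyl-tRNA synthetase complex, had 3.21 FPKM. EEF1A2, the paralogue of EEF1A1 known from muscle and neurons, lay under the limit at 0.428 ± 0.118 FPKM.

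Among the factors of start codon selection, EIF1, which guards start codon choice, had 142, 133 and 145 FPKM (mean 139.97 ± 6.14). Its paralogue EIF1B had 13.4 ± 0.422 FPKM. EIF5, which triggers GTP hydrolysis on eIF2, had 54.9 ± 0.897 and EIF1AX, which works with eIF1 in scanning, 12.5 ± 0.761 FPKM. The subunits of eIF2 lay close together. EIF2S3, its GTP-binding subunit, had 28.0, 28.9 and 29.0 FPKM (mean 28.6 ± 0.568), EIF2S2, the beta subunit, 27.4 ± 0.829 and EIF2S1, whose phosphorylation slows translation under stress, 19.2 ± 0.478. In eIF2B, the exchange factor of eIF2, the level ran from 29.9 ± 0.432 FPKM for EIF2B1 to 1.26 ± 0.393 for EIF2B3. The libraries of EIF2B3 held 0.889, 1.21 and 1.67 FPKM, the widest relative spread of the 58 genes (a coefficient of variation of 31.3% against a median of 3.94%).

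All 14 eIF3 names were expressed, with a median of 31.0 FPKM. EIF3L, a peripheral subunit, was highest with 119, 113 and 126 FPKM (mean 119 ± 6.17). EIF3D, a subunit that can itself bind the cap, followed with 92.7, 89.2 and 96.6 FPKM (mean 92.8 ± 3.66), and these ranges did not overlap. EIF3C, a core scaffold subunit, had 7.34 ± 0.344 and its near-identical copy EIF3CL 12.3 ± 0.869 FPKM, the lowest of the family together with EIF3J (10.8 ± 0.383). The sources used here do not state how reads were divided between EIF3C and EIF3CL.

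In the cap-binding and helicase group the helicase partners exceeded the cap-binding proteins. EIF4B, which stimulates the helicase, had 139, 136 and 139.7 FPKM (mean 138 ± 1.70). EIF4A2, a helicase, had 136, 133 and 141 FPKM (mean 137 ± 3.72). These ranges overlapped with each other and with that of EIF1, so the order of the 3 genes is within their spread. EIF4A1, the other helicase paralogue, had 32.0, 30.7 and 33.5 FPKM (mean 32.1 ± 1.42), with no overlap with EIF4A2. EIF4H, a helper of eIF4A related to eIF4B, had 76.1, 71.8 and 73.5 FPKM (mean 73.8 ± 2.18). Of the scaffolds, EIF4G2, which lacks the eIF4E-binding part, had 114, 112 and 118 FPKM (mean 115 ± 3.00), EIF4G1 53.1 ± 0.903 and EIF4G3 2.73 ± 0.172. The cap-binding protein EIF4E had 1.58, 1.40 and 1.45 FPKM (mean 1.48 ± 0.0889) and its paralogue EIF4E2, linked to cap binding in hypoxia, 8.07 ± 0.415. EIF4E3 was listed at 0 in all 3 libraries.

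Of the remaining factors, EIF4A3, the helicase of the exon junction complex, had 26.1 ± 0.394 FPKM, EIF5B 11.4 ± 0.284 and EIF6, which keeps the large subunit from joining early, 48.9 ± 2.74. EIF5A, the hypusine-bearing factor that relieves stalled ribosomes, had 24.8 ± 1.35 FPKM, its paralogue EIF5A2 4.45 ± 0.172 and EIF5AL1 0.394 ± 0.0940, under the limit. EEF2K, the kinase that inactivates eEF2, had 3.06 FPKM, and the methyltransferases of elongation factors reached at most 11.2 ± 0.609 (EEF1AKNMT, also METTL13). Under the limit lay EEF2KMT (0.554), EEF1A2, EIF5AL1, EIF1AY, EIF4E3 and both readthrough names.

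The 65 genes together held 3.63%, 3.55% and 3.76% of the summed FPKM in replicates 1, 2 and 3, of which EEF1A1 alone held 1.69%, 1.56% and 1.69%. The median of the 58 expressed genes was 19.1 FPKM (quartiles 8.68 and 49.0), beside 5.36 over all expressed genes, and 9 of the 204 genes at 100 FPKM or more belonged to the set.

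**Figure D2:**
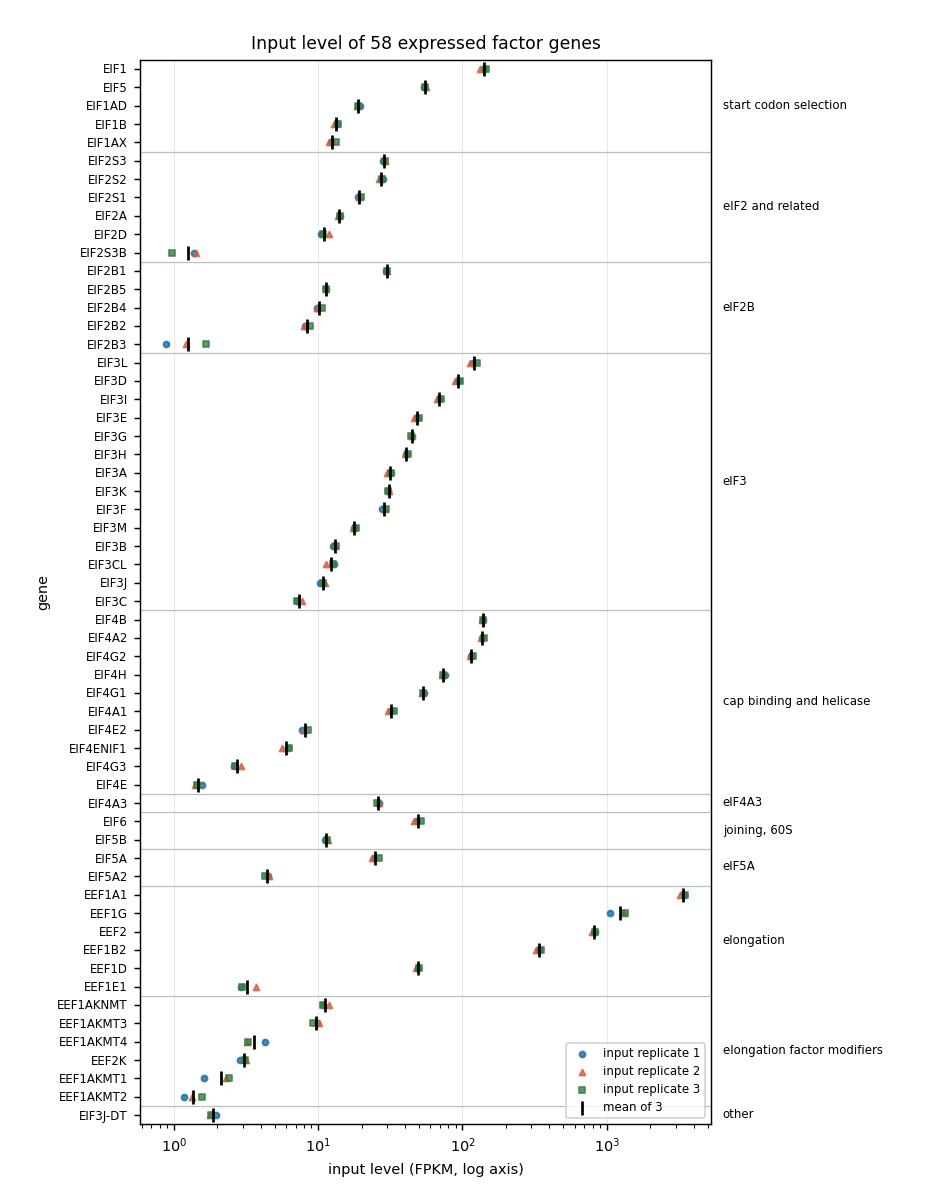
Input level of the 58 expressed factor genes in each of 3 input libraries (FPKM, log axis, 1 colour and shape per replicate; ticks mark means), grouped by role. EEF1A1 at a mean of 3381, EEF1G at 1230.3 and EEF2 at 811 stand above the rest, and EIF4E at 1.48 lies near the limit of 1.

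The authors' peak list gives regions enriched in IP over input after the combined treatment, with 1 fold enrichment per peak that is the authors' own value and carries no error. It assigned 136 of 42618 peaks to 48 of the 65 genes, 131 of them at a false discovery rate (FDR) under 0.05. Of the 58 expressed genes, 47 had a listed peak (81.0%, exact 95% interval 68.6 to 90.1), against a background of 79.7% of all expressed genes. The median fold enrichment was 3.28, below the 4.53 over all peaks, and it lay below the median of all peaks in the 5′ UTR (3.53 and 4.42), in other exons (3.63 and 4.66) and in the 3′ UTR (3.01 and 4.40). By the region label of the authors' annotation, 68 peaks were in the 3′ UTR (50%, exact 95% interval 41.3 to 58.7; all peaks 42.5%), 40 in the 5′ UTR (29.4%, 21.9 to 37.8; all peaks 23.1%) and 28 in other exons (20.6%, 14.1 to 28.4; all peaks 34.4%). In 8 of the 136 peaks the label names the exon of another gene. Some peaks labelled 3′ UTR lie far from the annotated 3′ end of their gene. A label alone does not fix a location. The share of peaks over a transcript start, 30.9%, was close to the 31.5% of all peaks.

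The 11 expressed genes with no listed peak included some of the most abundant. They were EEF1B2 (338 FPKM), EIF1 (139.97), EIF3D (92.8), EIF4H (73.8), EIF4A1 (32.1), EIF3K (30.7), EIF2S3 (28.6), EIF2A (14.1), EIF1B (13.4), EIF5A2 (4.45) and EIF2S3B (1.26). EIF2A encodes an alternative carrier of initiator tRNA, distinct from EIF2S1, and EIF3K a peripheral eIF3 subunit. The helicase paralogues differed, with 3 listed peaks in EIF4A2 and none in EIF4A1, as did the eEF1B subunits, with 4 in EEF1G and none in EEF1B2. A gene with no entry may still carry m6A below the authors' threshold, which the sources used here do not state.

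The highest enrichment was in the 5′ UTR of EIF6, with 47.5 on chromosome 20 at 35284620 to 35284985, its only listed peak. EIF3CL followed with 30.7 in a peak of 90 bases in the 3′ UTR on chromosome 16 at 28379699 to 28379788. EIF4ENIF1, which carries eIF4E into the nucleus and to P-bodies, had 3 peaks labelled 5′ UTR with 29.8, 24.2 and 23.0, the first spanning chromosome 22 from 31489536 to 31495988 across introns. Its 3′ UTR peak had 3.74. EEF1D resembled it, with 22.8, 15.2, 10.0 and 8.74 in peaks labelled 5′ UTR and 1.69 to 2.14 in 3 peaks of the 3′ UTR. In both genes the peaks labelled 5′ UTR were the strongly enriched ones. The EEF1D peak of 15.2, at 143598820 to 143600108 on chromosome 8, runs past the annotated 5′ end of the gene at 143599541. A further EEF1D peak, of 6.05, carries the label of another gene's exon. The EIF4ENIF1 peak of 29.8 spans the position of a peak with such a label. Which transcript carries the signal at these 5′ ends was not tested. The other genes with a peak of 10 or more were EIF3G, an RNA-binding eIF3 subunit, at 13.8 in the 3′ UTR, EIF3L at 13.4 in the 5′ UTR, EIF3F, a core subunit, at 10.2 in the 3′ UTR and EIF3J, a loosely bound subunit, at 10.1 in the 5′ UTR. The EIF3G peak, at 10113649 to 10115372 on chromosome 19, lies mostly past the gene's annotated 3′ end at 10115014. In all, 12 of the 136 peaks reached 10 (8.82%; all peaks 13.5%), 9 of them labelled 5′ UTR and 3 labelled 3′ UTR, and no peak in another exon did.

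The most abundant elongation factors had low to moderate enrichment. EEF1A1 had 3.92 in the 3′ UTR and 5.28, 2.61 and 1.86 in peaks labelled 5′ UTR, and EEF2 had 6.63 in the 3′ UTR. The 4 peaks of EEF1G, all labelled 3′ UTR, lay between 1.60 and 2.04 and overlap in pairs. They lie between 62573307 and 62573756 on chromosome 11. That is close to the EEF1G start printed above and far from the gene's annotated 3′ end at 62559596. By their coordinates, the EEF1A1 peaks labelled 5′ UTR lie between 73521802 and 73523861 on chromosome 6. That is upstream of the EEF1A1 start with the tract printed above, so they are not placed on the transcript that begins there. By role, the median enrichment was 2.14 over the 21 elongation factor peaks and 4.66 over the 25 eIF3 peaks. Across the 47 expressed genes with a peak, the mean input level and the highest enrichment had a Spearman rho of -0.16, and both measures share the input libraries.

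**Figure D3:**
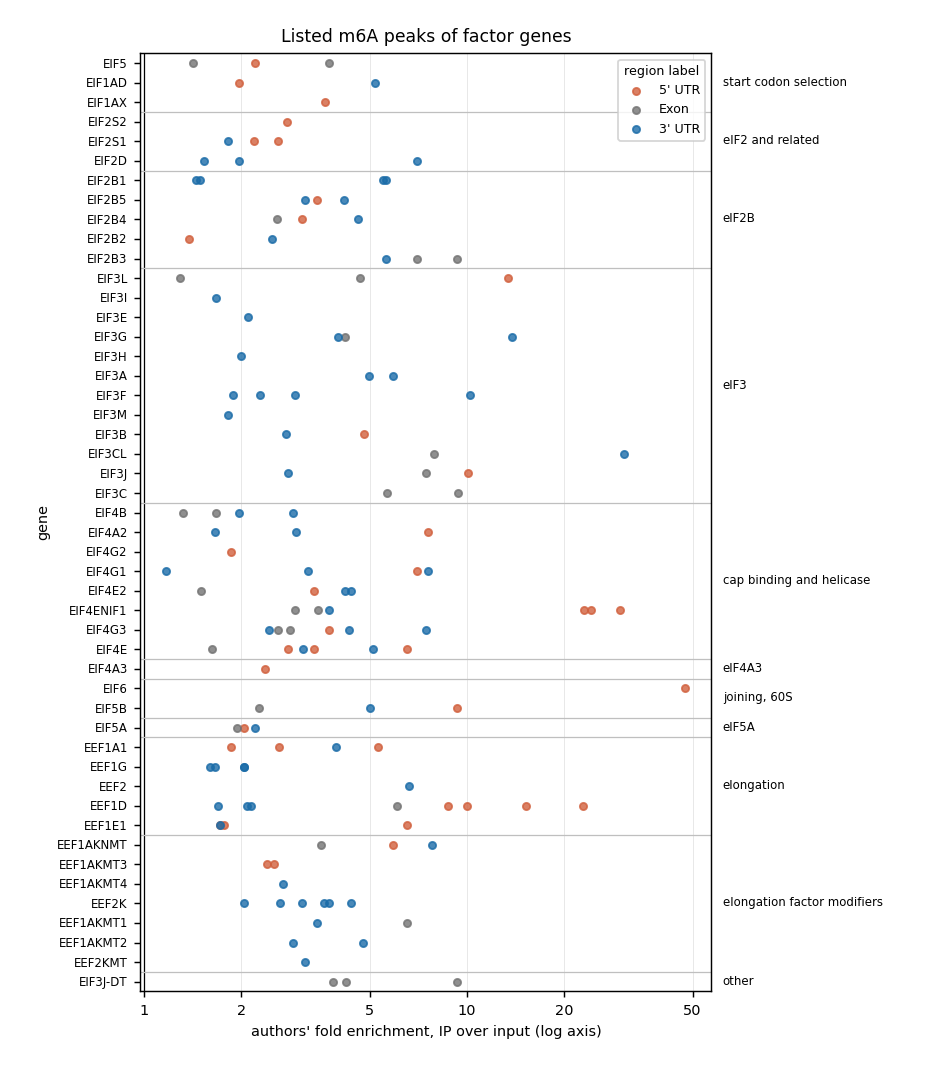
Authors' fold enrichment of IP over input (log axis) for each of the 136 listed peaks of 48 factor genes, grouped by role and coloured by region label. Most points lie under 10, and the points above 20 belong to EIF6, EIF3CL, EIF4ENIF1 and EEF1D.

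The comparison with CoCl2 was made by the authors and concerns m6A enrichment, not the RNA level. A positive log2 fold change is read as more enrichment after the combined treatment, because the table's name puts the combined treatment ahead of CoCl2. The labels do not state the direction, so it was checked against the listed peaks. Where the authors' deposited table gives a log2 change between 2 and 10, 948 of 995 peaks (95.3%) overlapped a listed peak of the same gene, against 393 of 951 (41.3%) between -8 and -2. Of the 73 tested peaks of factor genes, 70 did (95.9%). A peak is called higher or lower here at an FDR under 0.05 in the authors' deposited table, with no fold limit. That table gives no replicate values, so no spread between replicates can be set beside a change.

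The factor genes had a larger share of higher calls, and a smaller share of lower calls, than the whole table; the difference was not tested. Of the 73 tested peaks in 40 genes, the authors' deposited table called 31 higher (42.5%; background 23.1%) and 24 lower (32.9%; background 45.8%). The 55 calls made up 75.3% of the tested peaks, beside a background of 68.9%, and 18 did not pass. Over the 73 peaks the authors' deposited table has a median log2 change of 0.28, and over all 19979 tested peaks of -0.43. The 95% interval of the median over the 73 peaks, -0.31 to 0.41, holds both signs. Most changes were small: the median was 0.57 over the 31 higher peaks (0.19 to 2.83) and -0.65 over the 24 lower peaks (-1.13 to -0.20) of the authors' deposited table. A change of at least 2-fold was reached in the authors' deposited table by 5 higher peaks (background 6.01%) and 3 lower peaks (background 11.2%). Taking the peak of lowest p for each gene, 21 of 40 genes were higher (background 22.6%) and 16 lower (background 52.7%) in the authors' deposited table. Several peaks of a gene are not independent, and 8 of the 73 share bases with another tested peak of their gene.

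By region label, the authors' deposited table called 8 of 21 peaks in the 5′ UTR higher and 6 lower (backgrounds 28.1% and 43.3%). In other exons it was 6 higher and 1 lower of 11 in the authors' deposited table (backgrounds 19% and 34.3%), and in the 3′ UTR 17 higher and 17 lower of 41 (backgrounds 22.9% and 53.7%). The strength of a call moved with the input level of the gene. Across the 73 peaks of the authors' deposited table, input level and the minus log10 of the FDR had a Spearman rho of 0.46, beside 0.42 over 19606 peaks of all genes, and peaks of a gene share its input level.

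**Figure D4:**
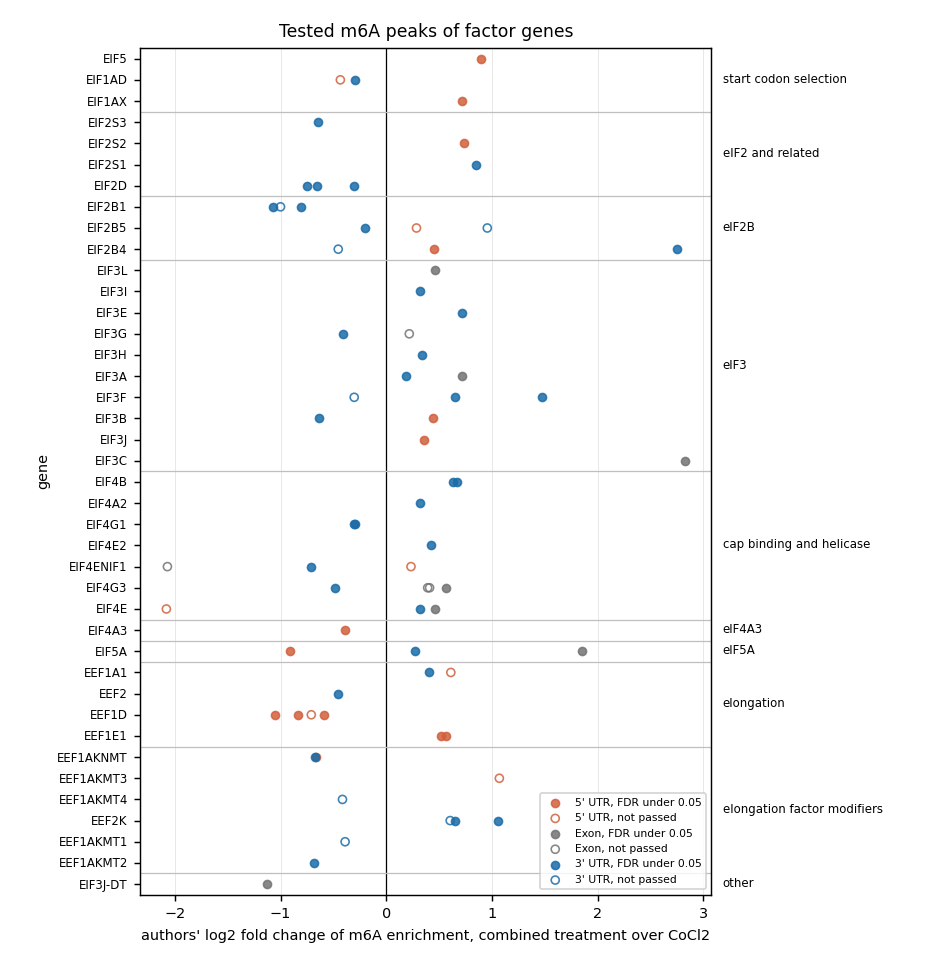
Log2 fold change of m6A enrichment, combined treatment over CoCl2, from the authors' deposited table, for each of the 73 tested peaks of 40 factor genes, grouped by role. Filled points passed an FDR of 0.05 (31 higher, 24 lower), open points did not, and the eIF3 rows lie mostly to the right of 0.

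The eIF3 complex, the platform that holds the other initiation factors on the small subunit, was higher in most of its tested subunits. Of its 15 tested peaks in 10 genes, the authors' deposited table called 11 higher and 2 lower (backgrounds 23.1% and 45.8%), with a median log2 fold change of 0.36 (all tested peaks -0.43). Without EIF3C, whose reads may be shared with EIF3CL, 10 of 14 peaks were higher and 2 lower in the authors' deposited table, with a median of 0.35. The 58 tested peaks of the other genes held 20 higher (34.5%) and 22 lower (37.9%) calls in the authors' deposited table, with a median of -0.25. Whether eIF3 differs from the other factors was not tested.

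EIF3C had the largest increase of the set, with a log2 fold change of 2.83 (log10 FDR -97.9) in the authors' deposited table for a peak labelled exon on chromosome 16 at 28714329 to 28720658. EIF3F, one of the subunits with an MPN domain, had higher peaks in the 3′ UTR of 1.47 (log10 FDR -5.14) and 0.65 (log10 FDR -12.1) in the authors' deposited table and 1 peak of -0.30 that did not pass. EIF3E, a subunit of the PCI scaffold, rose by 0.72 (log10 FDR -38.6) in the authors' deposited table. EIF3A, the largest subunit, rose by 0.72 in exon 12 of 22 (log10 FDR -23.7) and by 0.19 in a peak labelled 3′ UTR in the authors' deposited table. The 0.19 peak spans 119035767 to 119051254 on chromosome 10 with 2158 exonic bases, so its label does not place it in the 3′ UTR alone. The other subunits moved less. EIF3L (0.46), EIF3J (0.36), EIF3H (0.34) and EIF3I (0.32) each had 1 higher peak in the authors' deposited table. EIF3G, with a peak of -0.41 (log10 FDR -22.5) in the authors' deposited table, was the only subunit of the 10 with lower calls and no higher call. That peak, at 10112442 to 10115372 on chromosome 19, lies mostly past the annotated 3′ end of EIF3G at 10115014. Whether its signal belongs to EIF3G was not tested. The second EIF3G peak, at 0.22, lies inside the gene and did not pass in the authors' deposited table. EIF3D, EIF3K, EIF3M and EIF3CL had no tested peak.

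Subunits of eIF2 were split. The alpha subunit gene EIF2S1 was higher by 0.85 (log10 FDR -19.8) in its 3′ UTR and the beta subunit gene EIF2S2 by 0.74 (log10 FDR -40.1) in its 5′ UTR in the authors' deposited table. The gamma subunit gene EIF2S3 was lower, at -0.64 (log10 FDR -11.8) in the authors' deposited table, and it had no listed peak after the combined treatment. EIF2D, which binds initiator tRNA outside the eIF2 route, was lower in all 3 of its peaks labelled 3′ UTR, at -0.75, -0.66 and -0.30 in the authors' deposited table. The exchange factor eIF2B was mixed as well, with 2 higher and 3 lower calls among 9 peaks of the authors' deposited table (backgrounds 23.1% and 45.8%). EIF2B1, a regulatory subunit, was lower at -1.07 (log10 FDR -167) and -0.81 (log10 FDR -57.7) in separate peaks labelled 3′ UTR of the authors' deposited table, and another peak that shares bases with the -0.81 peak did not pass. The -0.81 peak, at 123618823 to 123620584 on chromosome 12, lies mostly past the annotated 3′ end of EIF2B1 at 123620406. Whether its change belongs to EIF2B1 was not tested. EIF2B4, another regulatory subunit, was higher at 2.75 (log10 FDR -4.68) and, in the 5′ UTR, at 0.45 in the authors' deposited table. The 2.75 peak, labelled 3′ UTR, is on chromosome 2 at 27366497 to 27366765. It lies inside the gene, whose annotated 3′ end is at 27364352. The tested EIF2B4 peak at that end had -0.45 in the authors' deposited table and did not pass (log10 FDR -0.74). EIF2B5, the catalytic subunit, had a lower peak of -0.20 (log10 FDR -1.45) in the authors' deposited table, the smallest of the 24 lower calls.

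Of the start codon factors, the eIF2 GTPase activator EIF5 and the scanning factor EIF1AX were higher in their 5′ UTR, by 0.90 (log10 FDR -11.5) and 0.72 (log10 FDR -10.2) in the authors' deposited table. EIF1AD, named for its eIF1A-like domain, was lower at -0.29 (log10 FDR -3.98) in the 3′ UTR in the authors' deposited table.

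In the cap-binding and helicase group the helicase paralogue EIF4A2 and the helicase partner EIF4B were higher and the main scaffold EIF4G1 lower. EIF4B was higher by 0.67 and 0.63 (log10 FDR -42.9 and -74.1) in overlapping 3′ UTR peaks of the authors' deposited table. EIF4A2 was higher by 0.32 (log10 FDR -19.3) in the authors' deposited table. EIF4E was higher in the 3′ UTR (0.32) and in an exon (0.46) in the authors' deposited table, and its 5′ UTR peak, at -2.08, did not pass (log10 FDR -1.04). EIF4E2 was higher by 0.43 in the authors' deposited table (log10 FDR -1.41). The scaffold EIF4G1 was lower in both of its tested peaks, at -0.31 and -0.29 (log10 FDR -20.5 and -12.7) in the authors' deposited table. EIF4ENIF1, the eIF4E transporter, was lower at -0.71 (log10 FDR -6.95) in its 3′ UTR in the authors' deposited table, while the peak at its strongly enriched 5′ end had 0.23 and did not pass. EIF4A3, the exon junction helicase, was lower at -0.39 (log10 FDR -1.9) in the authors' deposited table. The helicase paralogue EIF4A1, its helper EIF4H, EIF4G2, EIF5B and EIF6 had no tested peak.

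The elongation factors with the strongest statistics moved in opposite directions. EEF2 was lower at -0.46 (log10 FDR -434) in its 3′ UTR peak on chromosome 19 at 3976056 to 3976741 in the authors' deposited table. EEF1A1 was higher by 0.40 (log10 FDR -173) in its 3′ UTR peak on chromosome 6 at 73517485 to 73517784 in the authors' deposited table. Its peak labelled 5′ UTR, upstream of the printed start, had 0.61 in the authors' deposited table and did not pass (log10 FDR -0.28). Reads of EEF1A1 may be shared with its processed copies. EEF1D was lower in 3 of its 4 tested 5′ UTR peaks, at -1.05, -0.84 and -0.59 in the authors' deposited table. The -1.05 peak, at 143598550 to 143600228 on chromosome 8, runs past the annotated 5′ end of EEF1D at 143599541. It also overlaps a listed peak labelled with another gene's exon, and whether its change belongs to EEF1D was not tested. EEF1E1 was higher by 0.52 and 0.57 in overlapping 5′ UTR peaks of the authors' deposited table. EEF1G had 4 listed peaks but none was tested.

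Among the enzymes that modify elongation factors, EEF2K was higher in its 3′ UTR by 1.06 (log10 FDR -6.21) and 0.65 (log10 FDR -6.23) in the authors' deposited table. Its remaining peak, at 0.61 in the authors' deposited table, did not pass. EEF1AKNMT, which methylates eEF1A, was lower in both tested peaks of the authors' deposited table. They had -0.68 (log10 FDR -15.5) with the label 3′ UTR and -0.66 (log10 FDR -22.1) with the label 5′ UTR. The peak labelled 3′ UTR, at 171794416 to 171796998 on chromosome 1, lies well short of the gene's annotated 3′ end at 171814023. EEF1AKMT2, an eEF1A lysine methyltransferase, was lower at -0.68 (log10 FDR -1.69) in the authors' deposited table. EEF1AKMT1, EEF1AKMT3 and EEF1AKMT4, at -0.39, 1.07 and -0.41 in the authors' deposited table, did not pass. The noncoding EIF3J-DT had the largest decrease of the 24 peaks called lower, at -1.13 (log10 FDR -20.9) in the authors' deposited table, while EIF3J on the other strand was higher by 0.36.

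EIF5A, EIF3B and EIF4G3 were called in both directions, 3 of the 40 tested genes beside a background of 10.1% of genes with a tested peak. In EIF5A the authors' deposited table has -0.91 (log10 FDR -8.03) in the 5′ UTR, 1.85 (log10 FDR -13.7) in an exon and 0.28 (log10 FDR -2.69) in the 3′ UTR. EIF3B, a core subunit of eIF3, had 0.45 (log10 FDR -2.02) at the 5′ UTR and -0.63 (log10 FDR -14.3) at the 3′ UTR in the authors' deposited table. EIF4G3, a scaffold related to EIF4G1, had 0.57 (log10 FDR -2.13) in exon 11 of 33 and -0.49 (log10 FDR -3.86) in a peak labelled 3′ UTR in the authors' deposited table. In EIF5A the enrichment fell at the start of the gene and rose further along, and in EIF3B the order was the reverse. The difference between the peaks of a gene was not tested.

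**Figure D5:**
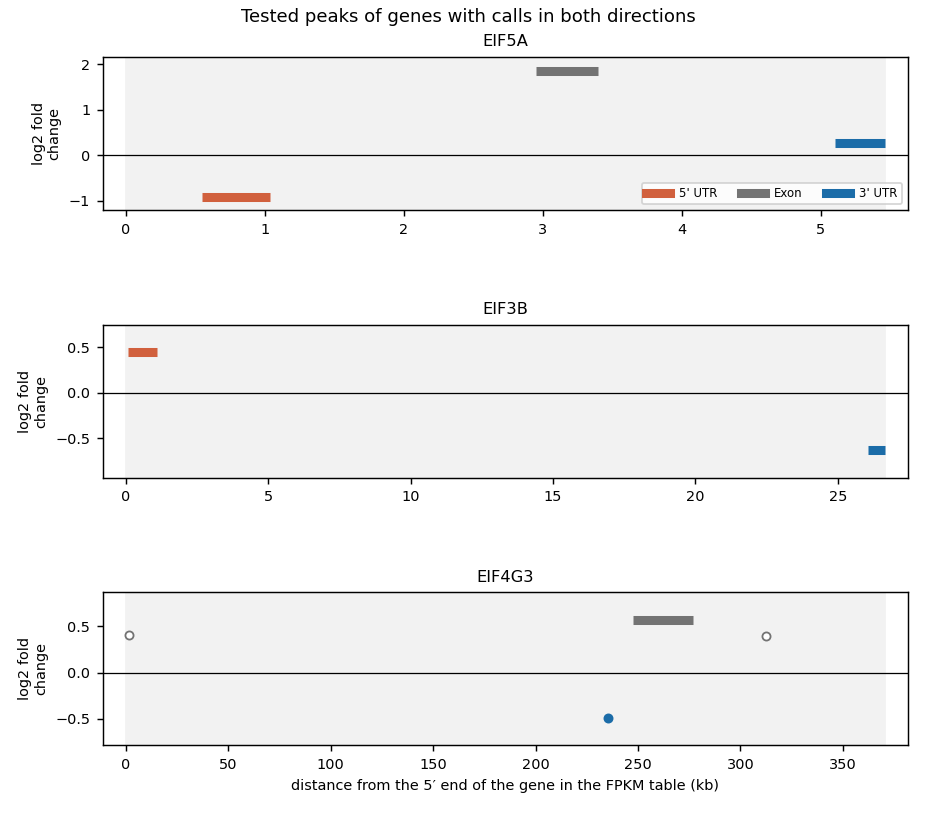
Tested peaks of EIF5A, EIF3B and EIF4G3 along each gene (distance from the gene's 5′ end in kb), with the log2 fold change from the authors' deposited table on the y axis and the region label as colour; bars span a peak, narrow peaks are points, and open points did not pass an FDR of 0.05. EIF5A runs from -0.91 at its 5′ end to 1.85 in the middle, and EIF3B from 0.45 to -0.63.

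The m6A calls on the regulators and partners of these factors give the wider pathway. In 6 lists with 35 genes, all were expressed and 32 had a listed peak. Of the 39 tested peaks in 23 of these genes, 15 were higher and 17 lower in the authors' deposited table, where the backgrounds are 23.1% higher and 45.8% lower; the same backgrounds apply to each list below, and no list was tested against them.

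Of the eIF4E-binding proteins, which hold eIF4E away from eIF4G, EIF4EBP2 (51.6 ± 1.09 FPKM) and EIF4EBP3 (4.97 ± 0.833 FPKM) had no listed peak. EIF4EBP1 (20.9 ± 0.678 FPKM) was higher by 0.43 in the 5′ UTR and lower at -0.35 in the 3′ UTR in the authors' deposited table. The kinases of eIF2 alpha and the phosphatase subunits that reverse them had 5 higher and 3 lower calls among 10 peaks of the authors' deposited table (backgrounds 23.1% and 45.8%). EIF2AK1, the kinase that senses haem, was higher by 0.96 and 1.22, and PPP1R15B, the constitutive phosphatase subunit, had -0.69 (log10 FDR -206) and 0.54 in the authors' deposited table.

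Termination and recycling factors had 1 higher and 7 lower calls among 9 peaks (backgrounds 23.1% and 45.8%) and a median of -0.78 (all tested peaks -0.43) in the authors' deposited table, so lower calls prevail in the whole table too. PELO, which rescues stalled ribosomes, was lower at -0.79 and -0.81, and ETF1, the release factor that reads stop codons, at -0.34 in the authors' deposited table. DENR, which recycles small subunits, was the exception, higher by 1.05 (log10 FDR -29.8) in the authors' deposited table. The mTORC1 and cap signalling list had 5 higher and 4 lower of 12 peaks in the authors' deposited table (backgrounds 23.1% and 45.8%). LARP1, which binds TOP mRNAs, was higher in 3 peaks, by 1.01, 0.69 and 0.35, and RPS6KB1, an mTORC1 substrate kinase, lower at -1.04 and -0.35 in the authors' deposited table. RPTOR was higher by 3.23 (log10 FDR -77.8) in a peak labelled exon of the authors' deposited table, and its other tested peak, at 2.25, did not pass. MTOR was lower at -0.87 (log10 FDR -27.1) in the authors' deposited table. The poly(A)-binding list had 1 higher call in 2 peaks, and the mitochondrial factors 2 higher and 2 lower in 4 peaks of the authors' deposited table (backgrounds 23.1% and 45.8%).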

How the data were processed

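Methylated RNA immunoprecipitation sequencing of 3 IP and 3 input libraries was read from tables the authors made, with samples grouped by title. The labels' protocols describe fragmentation of poly(A) RNA, an m6A antibody pulldown and dUTP-marked, paired-end sequencing. The tools named per the submitters' processing notes are ChIPseeker, HOMER, HISAT2 and fastp, without versions or roles. Not given in the sources used here are the genome build, the peak caller, the differential caller, the FPKM tool and how replicates were combined. Coordinates of peaks are those of the tables.

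FPKM was deposited by the authors per gene and input library, and 6 other per-sample columns of that table were not used. In the peak list the authors gave fold enrichment as a linear ratio, a p-value and the log10 of p and FDR, read as a score. In the differential table the authors gave a log2 fold change, a p-value and a log10 FDR, also read as a score, for each peak. The depth behind these values is unknown, and no count was recovered.

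The member genes and related lists were chosen with earlier results of these data known. Repeated lines (16 in the peak list, 4 in the differential table, none of a member) were removed. An overlap needed 1 shared base. Intervals of shares are exact (Clopper-Pearson, 95%) and reflect counting error alone. The functions were tested on simulated data. No test of treatment was run here: all calls are the authors'. Full values went to the genes highest in level, enrichment or change, those with no listed peak or calls in both directions, the top gene of each role and close paralogues. RefSeq starts of GRCh38.p14 were matched by symbol, with EEF1AKNMT matched as METTL13; EIF3L, EEF1D, EIF3E, EIF3G, EIF3H, EIF3A, EIF2S2, EIF3CL, EEF1AKMT3 and EEF1AKMT1 were not matched. Alternatives varied the FPKM, FDR, fold and overlap limits, the peak chosen per gene and the member rule, and left out each input replicate. Calculations used scipy 1.17.1, numpy 2.4.6, pandas 2.3.3 and matplotlib 3.10.9 under Python 3.11.15. Some markers of other cell types are not reported here.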

Additional observations from a re-analysis of the deposited data

How the results depend on the processing

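Without any FPKM limit the median input level of the factor genes was 13.4 FPKM, and at a limit of 5 it was 28.8, against 19.1 as reported. At a change of at least 2-fold, 5 peaks were higher and 3 lower in the authors' deposited table, and with the peak of highest absolute log2 fold change for each gene 20 were higher and 12 lower, against 31 and 24. The median fold enrichment was 5.24 with the highest peak of each gene, against 3.28. These follow from the alternatives' construction, which changes the genes or peaks counted. Leaving out each input replicate gave a median of 19.0 to 19.3 FPKM, with 58 expressed genes and 47 with a listed peak each time. At an FDR under 0.01, 7 called peaks of the authors' deposited table no longer passed, those of EEF1AKMT2, EIF2B5, EIF2D (-0.30), EIF3I, EIF4A3, EIF4E (0.46) and EIF4E2. The other 41 summary values and 222 values of single peaks or genes kept their direction and their side of the threshold or moved by less than the replicate spread or a factor of 1.5. No paired analysis was possible because the IP libraries have no value per replicate and the only input values per library analysed here belong to 1 treatment group. Unknown depth and the lack of replicate values per peak limit every peak result.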

Other observations

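Names of processed copies of factor genes also appear in the peak tables. Of the 79 such names, 22 carry 26 listed peaks, and 9 peaks under these names were tested for the comparison with CoCl2. The mean input level was 944 ± 49.5 FPKM for EEF1A1P5, 197 ± 10.5 for EEF1A1P6 and 55.9 ± 1.71 for EEF1B2P3 (SD, n = 3). EEF1B2 itself, at 338 FPKM, had no listed peak.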
